A study of Rattus norvegicus with 12 samples.

Results

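The genes described here mark the cholinergic interneurons of the rat dorsal striatum. Chat, Slc5a7, Slc18a3, Lhx8, Isl1 and Ache were found by gene name among the probes of an Agilent oligonucleotide array, leaving out control spots, and every probe with one of these names was taken. They are 6 of the 35608 genes on the array and are represented by 8 of its 41012 probes, 3 of which name Ache.

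Cholinergic interneurons are large, sparse and tonically active cells that supply most of the acetylcholine of the striatum. They carry dopamine receptors, and the balance of dopamine and acetylcholine in the striatum has long been studied in Parkinson's disease and in the abnormal movements that L-DOPA can cause. Chat encodes the enzyme that makes acetylcholine. Slc5a7 encodes the transporter that brings choline back into the terminal, Slc18a3 the transporter that loads acetylcholine into vesicles, and Ache the enzyme that breaks it down in the cleft. Lhx8 and Isl1 encode LIM homeodomain transcription factors needed for the cholinergic fate. Ache and Isl1 are also known from other cells of the striatum.

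RNA from the dorsal striatum of 12 male rats was hybridised to 12 single-colour arrays, 1 per rat, in 4 groups of 3. Every rat, including the controls, carried a unilateral lesion of the dopamine neurons made with 9 µg of 6-OHDA, was kept only where the loss of striatal mazindol binding reached 85%, and was killed 33 days after the lesion. The 6-OHDA group received nothing else. The HFS group had an electrode in the subthalamic nucleus and was stimulated from day 28 for the last 5 days (130 Hz, 80 µs, 60 µA). From day 14, rats of the DOPA group were injected 2 times per day for 19 days with L-DOPA (25 mg/kg) and benserazide (12.5 mg/kg), which blocks its conversion outside the brain, the last time 12 h before death. Stimulation and L-DOPA were combined in the DOPA/HFS group. Strain and age are not given in the sources used here, and each rat gave a pool of punches of its striatum. The rats without stimulation carried no electrode, so electrode and current cannot be told apart, and no unlesioned striatum was analysed here, so all differences are between lesioned rats.

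The regions upstream of the genes whose signals are compared most closely in the text are shown for context, since these genes are read in the same neurons. RefSeq windows on the rat build GRCr8 were found for all 6 genes. Each holds the 250 bases before the annotated start, written 5′ to 3′ in the direction of the gene. Capitals mark the letters TGACG or their reverse complement CGTCA, the core of the cyclic AMP response element, searched on both strands. The Chat window lies at chr16:7723417-7723666, that of Slc18a3 at chr16:7722815-7723064, that of Slc5a7 at chr9:7953510-7953759 and the second of the 2 Lhx8 windows at chr2:245927479-245927728, all on the minus strand.
Chat: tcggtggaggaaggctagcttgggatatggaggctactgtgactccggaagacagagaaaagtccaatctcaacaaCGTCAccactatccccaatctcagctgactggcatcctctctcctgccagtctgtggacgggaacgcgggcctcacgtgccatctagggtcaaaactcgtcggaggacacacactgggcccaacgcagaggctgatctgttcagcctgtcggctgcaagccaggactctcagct
Slc18a3: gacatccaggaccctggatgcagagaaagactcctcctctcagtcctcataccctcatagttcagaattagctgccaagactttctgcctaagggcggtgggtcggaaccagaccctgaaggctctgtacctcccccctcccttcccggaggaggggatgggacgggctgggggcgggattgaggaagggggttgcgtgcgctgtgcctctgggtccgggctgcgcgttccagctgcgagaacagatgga
Slc5a7: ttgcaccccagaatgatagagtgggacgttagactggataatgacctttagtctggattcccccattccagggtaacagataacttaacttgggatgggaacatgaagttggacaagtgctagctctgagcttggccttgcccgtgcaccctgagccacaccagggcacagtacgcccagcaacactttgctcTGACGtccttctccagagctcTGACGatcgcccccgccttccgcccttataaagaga
Lhx8: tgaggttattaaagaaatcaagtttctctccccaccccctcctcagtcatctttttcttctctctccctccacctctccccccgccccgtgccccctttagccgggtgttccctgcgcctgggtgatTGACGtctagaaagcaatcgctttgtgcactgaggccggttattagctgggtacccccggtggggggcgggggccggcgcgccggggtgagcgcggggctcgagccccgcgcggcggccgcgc
Slc18a3 lies inside the Chat gene on the same strand, with 602 bases between their starts, an arrangement known as the cholinergic gene locus. The letters TGACG begin 174 bases before the Chat start, 57 and 36 bases before the Slc5a7 start and 123 bases before this Lhx8 start. They also occur 125 bases before the Ache start and are not in the windows of Slc18a3 and Isl1 or in the first window of Lhx8. They were found in 18.2% of all 33469 windows of this length. The homeodomain letters TAATTA, present in 4.86% of the windows, were in none of those of the 6 genes. These matches describe letters and not binding.

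All 6 genes were measured in the striatum of these rats. Values are background-corrected intensities on a log2 scale after quantile normalization between arrays, so that a difference of 1 is a doubling, and each probe has its own scale. The probes of Slc5a7, Slc18a3, Lhx8 and the brightest Ache probe were well above background on 12 of 12 arrays. The Chat probe was near the lower end of detection, with a mean log2 signal of 5.28, and was well above background on 10 arrays but not on 6-OHDA replicate 2 and DOPA replicate 3. The Isl1 spot was well above background on 11 arrays and was marked as an outlier by the scanner software on DOPA/HFS replicate 3, where it was left out. Of the 10 striatal projection neuron markers on the array (among them Ppp1r1b, Drd1, Drd2, Adora2a and Penk), 9 were well above background on all 12 arrays. The other one, Rgs9, was so on 11 and had no value on DOPA/HFS replicate 3, where outlier spots were left out.

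The arrays themselves limited what could be seen. Spots well above background made up 50.5% to 63.2% of an array, and the scanner software rejected 4175 spots of DOPA/HFS replicate 3 but no more than 25 of any other array. Each of the 3 slides held 1 array of each group, and a group always had the same place on it, so place and treatment cannot be told apart. Choroid plexus genes such as Ttr and Kcnj13 differed greatly between arrays. The mean of 5 of them around its average over the arrays was -1.91 to -1.62 in 6-OHDA, 0.92 to 4.56 in HFS, -2.54 to 2.74 in DOPA and -2.38 to -0.33 in the DOPA/HFS group.

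Chat, the defining enzyme, varied more between the rats of a group than between the group means. Its log2 signal was 5.54, 4.82 and 5.42 in 6-OHDA, 5.41, 5.70 and 5.28 in HFS, 5.06, 5.19 and 4.73 in DOPA, and 5.92, 4.83 and 5.41 in DOPA/HFS. The highest and the third lowest value were both in the DOPA/HFS group, and the 3 DOPA arrays lay within the range of the 6-OHDA arrays or just under it. In order, the means were 5.46 ± 0.21 in HFS, 5.39 ± 0.55 in DOPA/HFS, 5.26 ± 0.39 in 6-OHDA and 4.99 ± 0.24 in DOPA (SD, n = 3). No neighbours in this order were separated by more than their spread. The lowest values of this probe were those not well above background, so they are bounds rather than levels.

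Slc5a7, the choline transporter, had the steadiest signal of the 6. It was 10.47, 10.11 and 10.39 in 6-OHDA, 10.21, 10.17 and 10.38 in HFS, 10.13, 10.08 and 10.13 in DOPA, and 10.54, 10.15 and 10.28 in DOPA/HFS. The DOPA arrays were tightly grouped at the bottom of the range, with a mean of 10.11 ± 0.03 against 10.32 ± 0.19 in 6-OHDA (SD, n = 3), but 6-OHDA replicate 2 lay among them. Within groups the SD was 0.15, and only 10.9% of the genes tested had a smaller SD.

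Slc18a3, the vesicular transporter, was well expressed on every array. The signal was 12.18, 12.37 and 12.39 in 6-OHDA, 12.03, 12.39 and 11.86 in HFS, 12.16, 12.66 and 11.87 in DOPA, and 12.05, 12.06 and 12.26 in DOPA/HFS. The DOPA group held both the highest value and the second lowest. The group means were 12.31 ± 0.11 in 6-OHDA, 12.23 ± 0.40 in DOPA, 12.12 ± 0.12 in DOPA/HFS and 12.09 ± 0.27 in HFS (SD, n = 3), and neighbours in this order overlapped. The 3 lowest Slc18a3 values, on HFS replicates 3 and 1 and DOPA replicate 3, were on the 3 arrays with the highest choroid plexus mean, which was 3.996, 4.56 and 2.74 there. The part of the choroid plexus signal in the Slc18a3 values was not tested.

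Lhx8, the transcription factor most closely tied to this cell type, had its highest value with both treatments. It was 8.94, 8.66 and 8.92 in 6-OHDA, 9.00, 8.56 and 8.94 in HFS, 8.65, 8.61 and 8.71 in DOPA, and 9.34, 8.98 and 8.71 in DOPA/HFS. The DOPA arrays clustered low, as for Slc5a7, and the highest of them, at 8.7077, was close to the lowest DOPA/HFS array, at 8.7138. The means were 9.01 ± 0.32 in DOPA/HFS, 8.84 ± 0.15 in 6-OHDA, 8.83 ± 0.24 in HFS and 8.66 ± 0.05 in DOPA (SD, n = 3).

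Isl1, the partner of Lhx8 in specifying cholinergic cells, showed no such order. Its signal was 8.92, 9.45 and 9.23 in 6-OHDA, 9.36, 9.03 and 8.89 in HFS, 9.24, 9.11 and 9.42 in DOPA, and 9.29 and 9.104 on the 2 DOPA/HFS arrays with a value. The 6-OHDA group alone spanned nearly the whole range, and the group means lay between 9.09 and 9.26.

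Ache was measured by 3 probes that did not behave alike. The brightest gave 10.82, 10.62 and 11.17 in 6-OHDA, 10.66, 10.98 and 10.87 in HFS, 10.91, 11.08 and 10.78 in DOPA, and 11.03, 10.87 and 11.07 in DOPA/HFS. Its 6-OHDA arrays held both the lowest and the highest value of the 12. A second probe was well above background on 11 arrays, with group means of 8.48 in 6-OHDA, 8.26 in HFS, 8.53 in DOPA and 8.12 over 2 arrays of DOPA/HFS. The remaining probe was never well above background, so its values are only a bound.

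**Figure D1:**
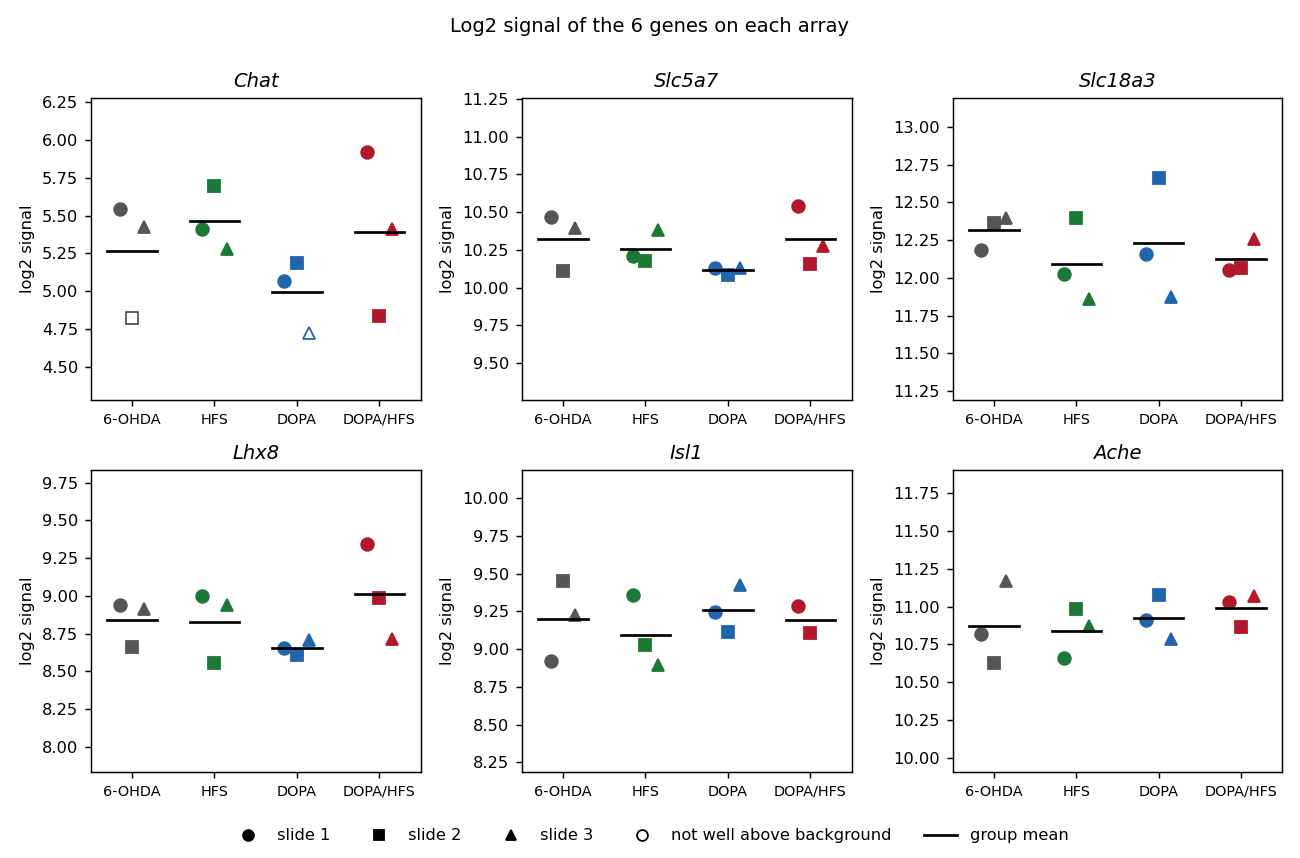
Log2 signal (y axis, each panel spanning 2 units around its own mean) of the probe used for each gene on every array, by group (x axis), with the slide as symbol, the group mean as a bar and open symbols for spots not well above background. The groups overlapped with 6-OHDA for each gene, and the DOPA arrays of Slc5a7 (10.08 to 10.13) and Lhx8 (8.61 to 8.71) lay close together.

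Whether each treatment changed these genes relative to the lesion alone was asked with a limma model of all 12 arrays and 20408 genes. Calls needed an adjusted p (Benjamini-Hochberg) below 0.1 and a fold above 1.2 or below 0.8. The 6 genes all passed the filter on dim probes. In bulk tissue, fewer cholinergic interneurons and less RNA per interneuron cannot be told apart.

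High-frequency stimulation of the subthalamic nucleus gave no call among the 6 genes, where 0% of all genes were called, and none had an unadjusted p under 0.05, as 2.35% of all genes did. No gene had HFS arrays clear of the 6-OHDA arrays, against 5.14% of all genes with a value on every array. Chat had the highest log2 difference, 0.20 (SE 0.28, 3 arrays per group), and Slc18a3 the lowest, -0.22 (SE 0.21). As folds, the 95% interval ran from 0.749 to 1.76 for Chat and from 0.625 to 1.18 for Slc18a3. The other genes lay between -0.11 and -0.01, with a median over the 6 of -0.05 against 0.01 over all genes tested.

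Chronic L-DOPA likewise gave no call among the 6 genes, with 0.0049% of all genes called and 2.59% below an unadjusted p of 0.05, which none of the 6 reached. None was clear of the 6-OHDA arrays, against 6.18% of all genes. The lowest differences were those of Chat, -0.27 (SE 0.28), Slc5a7, -0.21 (SE 0.15), and Lhx8, -0.18 (SE 0.18), and that of Slc18a3 was -0.09. Slc5a7 had the smallest p (limma, unadjusted p = 0.188, adjusted p = 0.99998), and its interval allowed folds of 0.689 to 1.09. Slc5a7 was lower in DOPA than in 6-OHDA on 3 of 3 slides, by values between -0.34 and -0.03, and so was Lhx8, between -0.29 and -0.05. Chat, Slc18a3, Isl1 and Ache had both signs over the slides. The share of all genes with the same sign on every slide is not given here. Isl1 and Ache differed by 0.06 and 0.05, and the median over the 6 genes was -0.13 against -0.01 over all genes.

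With both treatments together, again no gene was called (0% of all genes), none had an unadjusted p under 0.05 (2.75%) and none was clear of the 6-OHDA arrays (4.19%). Lhx8 had the highest log2 difference, 0.18 (SE 0.18), and Slc18a3 the lowest, -0.19 (SE 0.21). Slc18a3 was lower on 3 of 3 slides, by values between -0.30 and -0.13. The other genes each had both signs over the slides, and the share of all genes is again not given. Slc5a7 and Isl1 had estimates of 0.00. In the deposited log2 table the median of all genes was itself -0.12 in this comparison, and Lhx8 was at -0.03, Chat at -0.06 and Slc5a7 at -0.17 there, so no direction is given for Lhx8 or Chat. The 95% intervals over the 6 genes lay within folds of 0.638 to 1.67.

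The 2 by 2 layout allowed each treatment to be assessed over all arrays. For the mean effect of L-DOPA, 6 arrays with it against 6 without, no gene was called (0.0049% of all genes), none had an unadjusted p under 0.05 (2.73%) and none was clear of the other arrays (0.136%). The values ran from -0.17 for Chat to 0.10 for Ache. For the mean effect of stimulation the call count was again 0 (0% of all genes), with 0 genes under an unadjusted p of 0.05 (4.36%) and 0 clear of the other arrays (0.163%). Chat had the highest value, 0.30 (SE 0.20, limma, unadjusted p = 0.161, adjusted p = 0.911), with an interval of -0.14 to 0.73. Over the alternative settings it ran from 0.05 in the deposited log2 table to 0.44 without DOPA/HFS replicate 2, where limma gave an unadjusted p of 0.0331 and an adjusted p of 0.735. It was 0.08 with the normexp background, 0.16 without DOPA/HFS replicate 1 and 0.19 without 6-OHDA replicate 2. Both arrays on which Chat was not well above background were among the unstimulated ones.

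The interaction, which is the stimulation effect with L-DOPA minus that without it, was also called for none of the 6 genes (0% of all genes, with 1.98% at an unadjusted p under 0.05 and none of the 6). With the brightest probe of each gene the estimates ran from 0.04 for Isl1 to 0.37 for Lhx8 (SE 0.26, limma, unadjusted p = 0.188), with a median of 0.16 against -0.01 over all genes. The second Ache probe gave -0.19, and the estimates of Chat, Slc18a3, Isl1 and Ache each turned below 0 under at least 1 alternative setting, the lowest of them to -0.07, -0.08, -0.08 and -0.05. Every interval included 0.

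Exact two-sided permutation tests on single genes cannot go below p = 0.1 with 3 arrays against 3. Over the 5 comparisons and 6 genes the lowest p was 0.173, for Chat in the mean effect of stimulation, and the adjusted p over these tests was 0.944 or higher.

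The sign of the Ache difference depended on the probe in part of the comparisons. The brightest and the second probe had the same sign for HFS (-0.03 and -0.22) and for DOPA (0.05 and 0.05). For both treatments together, the brightest probe had a difference of 0.12 (SE 0.17) and the second one -0.35 (SE 0.28), the latter without DOPA/HFS replicate 3. For the mean effect of stimulation the values were 0.02 (SE 0.12) and -0.31 (SE 0.19). Neither probe was called, and no direction is given for Ache.

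**Figure D2:**
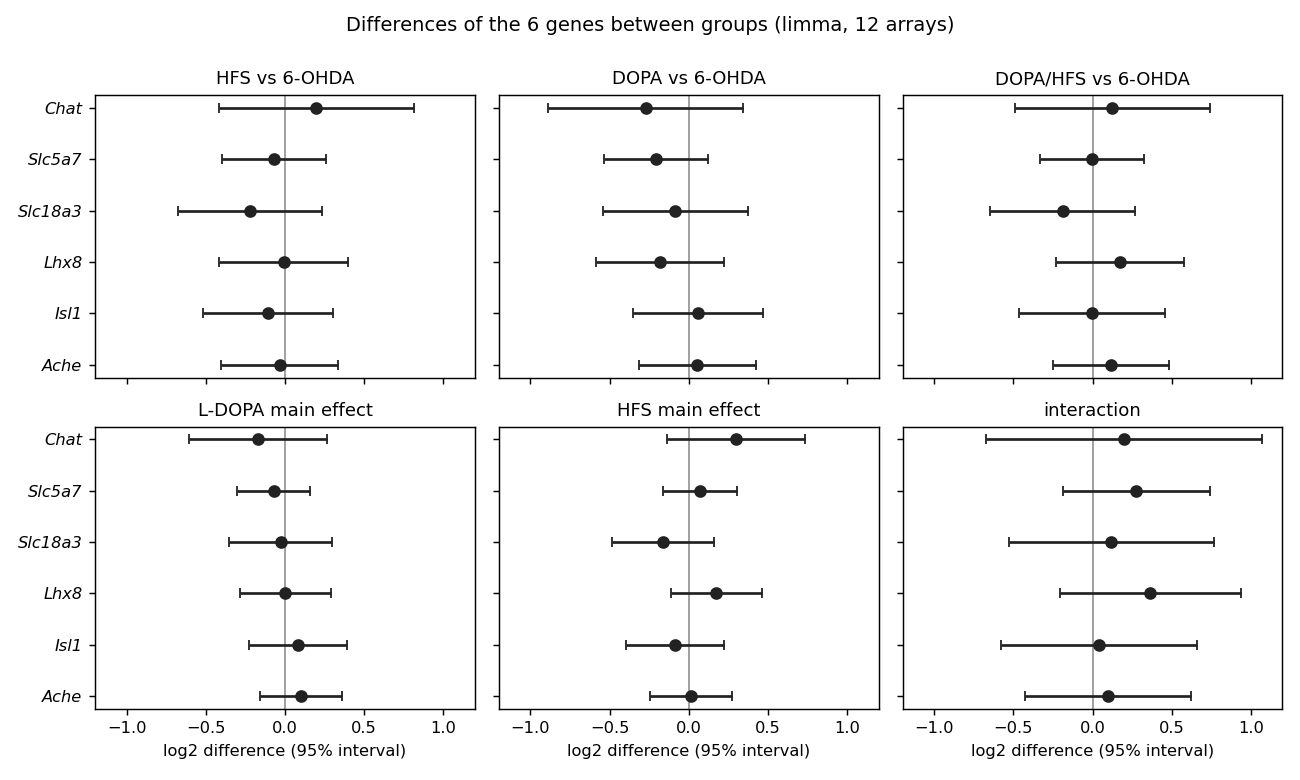
Log2 differences of the 6 genes (points) with 95% intervals from limma (bars) for each treatment against 6-OHDA, the mean effect of each treatment and the interaction (x axis, log2 units). Each interval includes 0, and those of Chat are the widest, reaching from -0.89 to 0.34 for DOPA, while Slc5a7 has the narrowest.

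Whether the genes varied together from rat to rat was examined over the 12 arrays for all 15 pairs. Slc5a7 and Lhx8 had the highest correlation (Pearson r = 0.76, permutation p = 0.00356, adjusted p = 0.0534, Spearman rho = 0.69, permutation p = 0.0162, adjusted p = 0.122). Chat and Slc5a7 followed (r = 0.71, permutation p = 0.0103, adjusted p = 0.0773, rho = 0.76, permutation p = 0.00541, adjusted p = 0.0811). At the limit set for pairs, an adjusted p of 0.05, neither passes. DOPA/HFS replicate 1 was at the top and the DOPA arrays in the lower part of the range for all 3 genes, and without the 2 arrays farthest from the median of the first gene named, r was 0.56 and 0.54. With the group means subtracted, which was added after the data had been seen, r was 0.71 and 0.69, and with the slide means subtracted as well, 0.53 and 0.69.

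Slc18a3, which lies inside Chat, had a low correlation with it over the arrays (r = 0.14, permutation p = 0.676, adjusted p = 0.845, rho = 0.17, permutation p = 0.589, adjusted p = 0.679), and its values with Slc5a7 and Lhx8 were -0.28 and -0.49. The values with Chat and Slc5a7 depended on the slides. With group and slide means subtracted they were 0.75 and 0.16, and that with Lhx8 was -0.37. In this setting permutation p-values are too small, because the residuals are not independent. Isl1 had correlations between -0.36 and -0.03 with the other genes over 11 arrays.

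**Figure D3:**
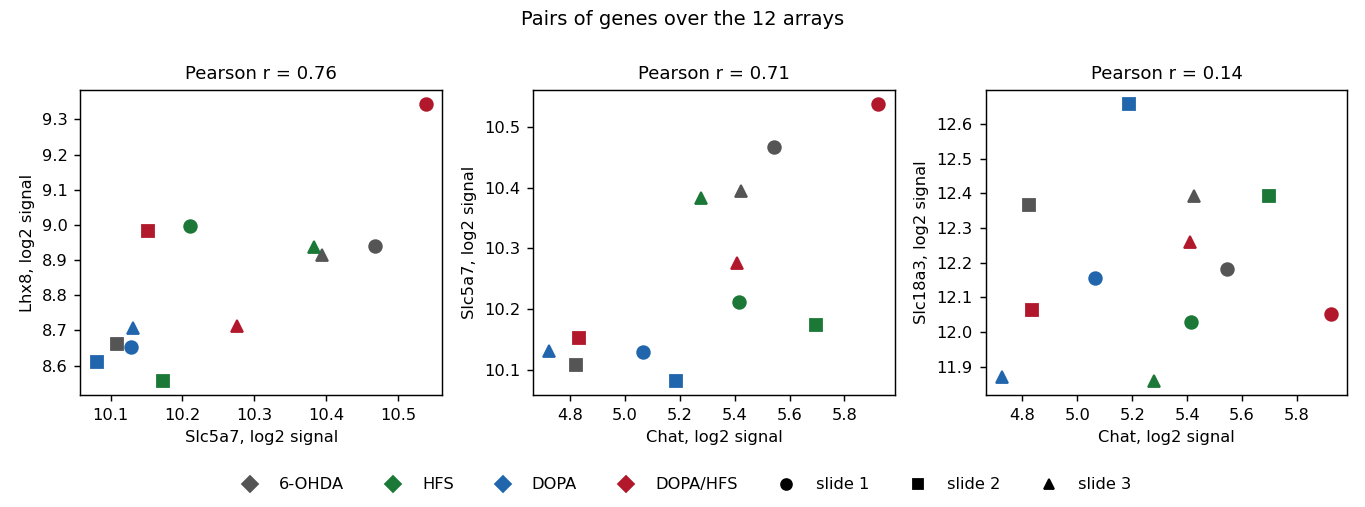
Log2 signal of one gene against another over the 12 arrays (both axes in log2 units), coloured by group and with the slide as symbol. Slc5a7 and Lhx8 (r = 0.76) and Chat and Slc5a7 (r = 0.71) lie along a line that ends in DOPA/HFS replicate 1, and Chat and Slc18a3 (r = 0.14) do not.

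Genes with the profile most like those of Chat and Slc5a7 were sought among 18359 genes with a value on all 12 arrays. For Chat the closest named genes were Zar1 (r = 0.90), Actn2 (0.84), Mta3 (0.84), Mutyh (0.83) and Socs4 (0.83). For Slc5a7 they were Vldlr (0.91), Mon2 (0.90), Gltscr1 (0.89), Mllt10 (0.89) and Plekha5 (0.88). These genes were picked for their correlation, so the values carry no test. Among all genes, 0.806% correlated better with Chat than Slc5a7 did, whereas 41.0% did so better than Slc18a3, and 1.37% correlated better with Slc5a7 than Lhx8 did.

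The other genes of the pathway were described from fixed lists, and no listed gene was called in any comparison. Of 10 genes of acetylcholine handling, 8 were tested (choline transporters and kinases, the citrate carrier Slc25a1, Acly, Pemt and the esterase anchor Colq). Their differences ran from -0.50 to 0.31 for HFS, from -0.29 to 0.29 for DOPA and from -0.18 to 0.19 for DOPA/HFS, with medians of 0.09, -0.02 and -0.03. None had an unadjusted p under 0.05 in these comparisons. The widest contrast was Colq, whose interaction was 0.92 (SE 0.36, limma, unadjusted p = 0.0279, adjusted p = 0.99996).

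Of 14 acetylcholine receptor genes, 7 passed the filter and 7 were too dim to be tested. Those tested were the muscarinic receptors Chrm1, Chrm3 and Chrm4 and the nicotinic subunits Chrna4, Chrna5, Chrna7 and Chrnb2. Chrna7, which forms nicotinic receptors on its own, was 9.21, 9.28 and 9.49 in 6-OHDA and 9.86, 9.69 and 9.85 in HFS, and the arrays did not overlap. The difference of 0.47 (SE 0.16) had an unadjusted p of 0.0147 and an adjusted p of 0.998 in limma. Chrm3, a muscarinic receptor coupled to Gq, was 12.52, 12.15 and 12.30 in 6-OHDA and 11.78, 11.10 and 11.77 in DOPA/HFS, again without overlap, and differed by -0.77 (SE 0.32, limma, unadjusted p = 0.0361, adjusted p = 0.9997). Its difference was -0.55 (SE 0.32) under HFS alone and -0.61 (SE 0.23, limma, unadjusted p = 0.022, adjusted p = 0.911) for the mean effect of stimulation. Over all genes, 5.14% did not overlap between HFS and 6-OHDA and 4.19% between DOPA/HFS and 6-OHDA. Medians over the 7 receptor genes, muscarinic and nicotinic together, were 0.19 (HFS), 0.04 (DOPA) and -0.01 (DOPA/HFS).

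Among these 3 pathway lists, the developmental and trophic genes of cholinergic neurons held the widest differences, in 4 genes tested of 9. Ngfr, the low-affinity neurotrophin receptor, differed from 6-OHDA by 3.06 (SE 0.53) in DOPA and by 1.66 (SE 0.53) in DOPA/HFS. In limma the unadjusted p was 0.000128 and 0.00973, and the adjusted p 0.874 and 0.9997. An unadjusted p under 0.05 was reached by 2.59% and 2.75% of all genes in these comparisons. Zic4, a zinc finger transcription factor, was 6.92, 7.19 and 6.82 in 6-OHDA and 5.54, 5.23 and 6.29 in DOPA. The groups did not overlap, like those of 6.18% of all genes, and the difference of -1.29 (SE 0.36) had an unadjusted p of 0.00423 and an adjusted p of 0.99998 in limma. It was -0.62 in HFS and -0.83 in DOPA/HFS. Gbx2 differed by 0.98 (SE 0.39, limma, unadjusted p = 0.0300, adjusted p = 0.9997) in DOPA/HFS, by 0.68 in HFS and by 0.66 in DOPA. The probes of Gbx1 and Gbx2 were dim, each well above background on 9 arrays.

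**Figure D4:**
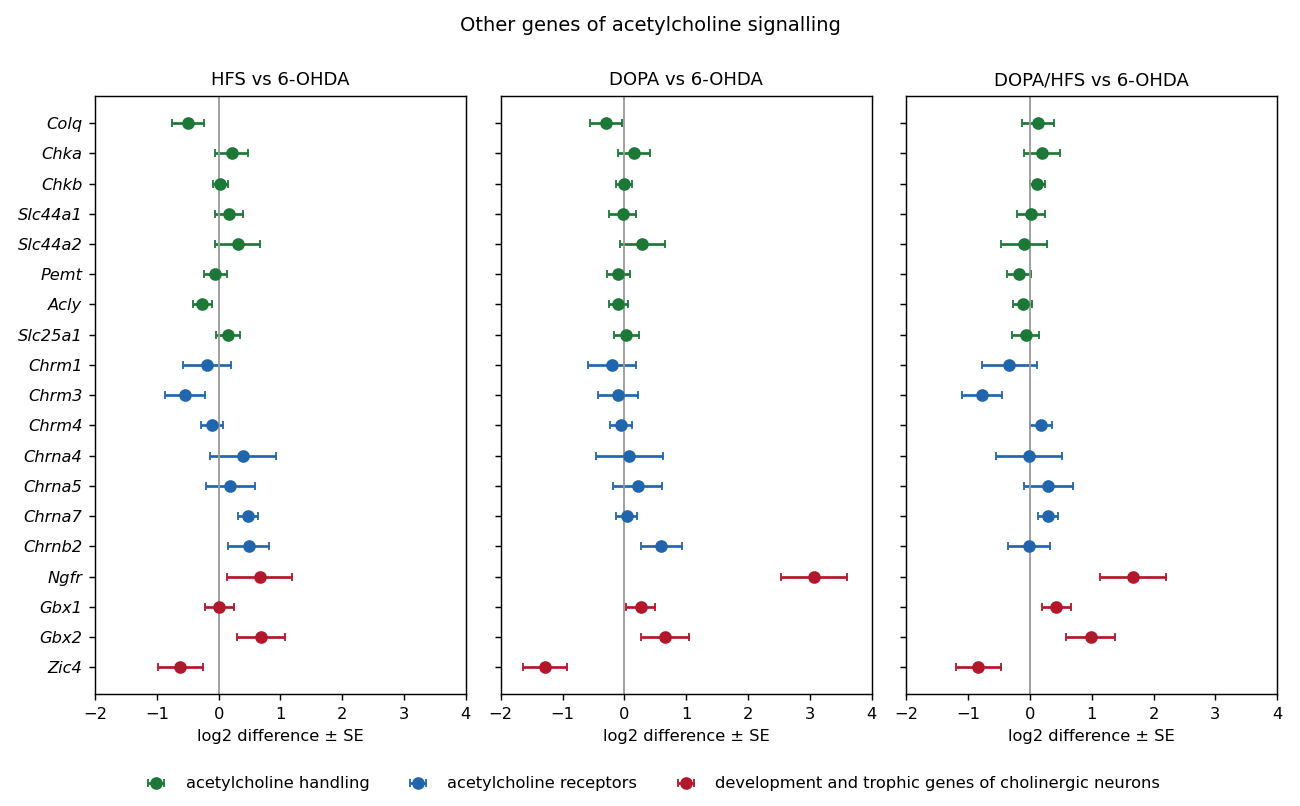
Log2 differences from 6-OHDA (x axis, log2 units, bars are standard errors from limma) of the tested genes of acetylcholine handling, acetylcholine receptors and development or trophic support, by treatment. Ngfr reaches 3.06 and Zic4 -1.29 in DOPA, and neither was called.

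A wider marker list of cholinergic interneurons adds Slc17a8, Tacr1, Ecel1 and Zic4 to the 6 genes, and all 10 were tested. Differences were below 0 for 8 of 10 under HFS, 8 under DOPA and 6 under DOPA/HFS, with medians of -0.07, -0.20 and 0.00, and Zic4 in DOPA and in DOPA/HFS was the only one with an unadjusted p under 0.05, a limit that 2.59% and 2.75% of all genes passed. The 3 comparisons share the 6-OHDA arrays. For the 3 added genes with a value on every array, Tacr1, Ecel1 and Zic4, the mean around its average over the arrays was 0.25 to 0.39 on the 6-OHDA arrays, -0.15 to 0.08 in HFS, -0.35 to -0.10 in DOPA and -0.41 to 0.33 in DOPA/HFS. Zic4 had the largest difference of the 3 in each comparison, and the DOPA/HFS arrays overlapped with those of 6-OHDA. In HFS and in DOPA, Zic4 was clear of the 6-OHDA arrays, whereas Tacr1 and Ecel1 each overlapped with them. Over all genes, 5.14% (HFS) and 6.18% (DOPA) did not overlap with 6-OHDA. Slc17a8, the vesicular glutamate transporter that these interneurons also carry, had differences of 0.28 (SE 0.29) for HFS, -0.41 (SE 0.29) for DOPA and 0.16 (SE 0.33) for DOPA/HFS, and Chat had 0.20, -0.27 and 0.12. Both probes were dim: that of Slc17a8 had a mean log2 signal of 5.76 and was well above background on 10 arrays. Its DOPA values were 5.73, 5.63 and, on replicate 3, 4.71, and it had no value on DOPA/HFS replicate 3.

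Markers of neighbouring regions were also compared, since a punch can reach beyond the striatum. For the pallidum, septum and basal forebrain, where other cholinergic neurons lie, 7 symbols were listed, of which Gal and Galn name the same gene. The 4 tested were Npas1, Zic1, Calb1 and Gal. Their medians were -0.10 (HFS), -0.30 (DOPA) and -0.23 (DOPA/HFS), with none under an unadjusted p of 0.05. The 3 cortex markers tested differed by 0.29 to 0.61 for HFS, 0.06 to 0.52 for DOPA and -0.05 to 0.59 for DOPA/HFS, none under an unadjusted p of 0.05, and their mean varied between arrays from -1.004 to 0.94. The 10 striatal projection neuron markers had medians of -0.06, 0.08 and -0.01. Of these, Tac1 and Ebf1 had an unadjusted p under 0.05 for HFS (0.37 and -0.61), Pdyn for DOPA (1.40) and Pdyn and Ebf1 for DOPA/HFS (0.76 and -0.62). The 10 markers of other striatal interneurons had medians of 0.02, -0.04 and 0.06, with Th under that limit for DOPA (0.89) and DOPA/HFS (0.69). Over all genes, 2.35% (HFS), 2.59% (DOPA) and 2.75% (DOPA/HFS) passed it, and none of these markers was called. The part of tissue composition in the values of the 6 genes was not tested.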

How the data were processed

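Dorsal striatal RNA of 12 rats was analysed, with groups and replicate numbers from the labels. The scanner intensity of each spot was made by the authors with Agilent Feature Extraction 9.1, which subtracts local background and applies no normalization between arrays. The log2 table deposited by the authors holds quantile normalized values and served as an alternative. The annotation build is not given in the sources used here.

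Each array held 45018 spots. The 1639 controls and spots marked as outliers were left out, intensities were taken to log2, quantile normalized and averaged by probe. A probe was kept if a share of 0.4 of the arrays had it well above background, and the brightest stood for its gene. The 10735 probes with a match by accession took the RefSeq symbol. All arrays were fitted with limma 3.58.1 in R 4.3.3 (with jsonlite 2.0.0) in place of the SAM of the methods, and p-values were Benjamini-Hochberg adjusted over 20408 genes. The position of each gene was taken only from the RefSeq promoter windows. Correlations used 100000 permutations in Python 3.11.15 (numpy 2.4.6, scipy 1.17.1, pandas 2.3.3). The fits were tested on simulated data. The members, lists and likeness rule (the 5 genes of highest r for Chat and for Slc5a7) were chosen with earlier results of these data known. The alternatives are given with the limits. Precision is limited by the number of arrays. The values of some listed genes are not reported here, and the lists were counted without them.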

Additional observations from a re-analysis of the deposited data

How the results depend on the processing

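None of the 6 genes was called in any comparison under any alternative run, which were the deposited log2 table, 75th percentile scaling, normexp (offset 50), other filters and probe rules, outlier spots kept or left out after normalization, an adjusted p under 0.05, no fold limit, only the arrays compared, the replicate block, and leaving out each array. The count of called genes stayed at 0 when single arrays were left out, and the lowest adjusted p over 810 log2 differences was 0.586. Of these differences, 66 changed sign and 8 moved by over 1 SD. Isl1 moved most when its outlier spot was kept, to 1.48 for DOPA/HFS, 0.82 for L-DOPA, 0.66 for stimulation and 1.53 for the interaction. Slc5a7 moved to -0.17 for DOPA/HFS and 0.04 for the interaction in the deposited table, and Ache to 0.37 and 0.45 with the mean of all probes. On DOPA/HFS replicate 3 the second Ache probe had no value, so the mean of that array was the brightest probe alone, at 11.07. The kept Isl1 spot had an intensity of 18180.5 on the same array, against 440 to 849 on the others. The cause of the Slc5a7 shifts was not tested.

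The replicate number is the slide number. Deviations from the group means were compared between arrays over all tested genes with a value on every array. The mean correlation was 0.12 for arrays of the same slide, with 10 of 18 pairs over 0.1. For arrays of different slides it was -0.06, with 7 of 36. Deviations from a group mean cancel out within the group, so this negative mean largely follows from the same-slide mean and is no separate observation. The design did not use the slide as a block, and it is given here as an alternative. With the replicate block the lowest adjusted p was 0.766 and the call count stayed at 0. The number of gene pairs with an adjusted p under 0.05 was 0, but became 3 with the replicate block (Chat with Ache, r = 0.86, Slc18a3 with Ache, 0.78, and Chat with Slc18a3, 0.75), 1 in the deposited table and 1 with outlier spots left out after normalization, a setting chosen after seeing the data. Both of the latter were Slc5a7 with Lhx8 (r = 0.79 and 0.87). For the replicate block the permutation p-values are too small, because the residuals are not independent, so its 3 pairs cannot be taken as passing.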
